A study of Mus musculus with 18 samples.

Results

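The 10 genes described here belong to the amino acid and endoplasmic reticulum (ER) stress response and were followed in mouse embryonic stem cells with and without the transcription factor Pax7: Chac1, Cth, Herpud1, Ddit3, Trib3, Asns, Psat1, Sesn2, Atf4 and Slc7a11. They are 10 of the 22180 genes measured, and they were chosen by name with values of these arrays across genotypes and days already known. Their own values are therefore given as a description, and no p-value of theirs is printed. Counts of them past the adjusted p threshold, at any day or step, are likewise a description and no test of the 10. The cells were F1 (C57Bl6N x 129Sv) embryonic stem cells of the genotypes Pax7+/+ and Pax7-/-, and how the Pax7-/- line was made, and from how many clones, is not given in the sources used here. At day 0 they were undifferentiated cells in KO-DMEM with LIF, at day 7 embryoid bodies, which are floating aggregates of differentiating cells, and at day 21 outgrowths of those bodies. Both later stages lacked LIF and received RA and ITS, so day and medium changed together in both genotypes. Each genotype and day had 3 arrays, labelled as biological replicates, which gave 18 arrays in 6 groups.

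The amino acid response and the PERK branch of the ER stress response meet at 1 step. Kinases that sense missing amino acids or unfolded protein phosphorylate the translation factor eIF2 alpha, which slows protein synthesis in general but favours translation of Atf4 mRNA. ATF4 then binds composite C/EBP-ATF elements in genes for amino acid synthesis, amino acid uptake, tRNA charging and glutathione turnover. The other ER stress branches, through ATF6 and IRE1-XBP1, act on ER stress response elements in genes of chaperones and of ER-associated degradation. Embryonic stem cells, which divide fast, are known for a high demand for amino acids.

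The promoters show which of the 10 genes carry these letters near their starts. The genes were named as members of this response, whose factors act on such elements, so a high share is no independent result. The same holds for the pathway lists. RefSeq promoter windows on GRCm38.p6, from 250 bases before to 50 bases after an annotated start, were held for 9 of the 10 genes, Cth being the one without. The composite element was searched as TGATGNAA on both strands, and 5 of the 9 genes had it, against 4.51% of 27025 genes and 3.97% of 32851 windows. The 5 promoters are printed below with these letters in capitals, followed by that of Hspa5, the gene of the ER chaperone BiP, as a contrast with an ER stress response element (CCAAT and CCACG with 9 bases between). In the Herpud1 window the capitals also mark the short ER stress response element, ATTGG and CCACG with 1 base between.
Chac1 (chr2:119350992-119351291, plus strand): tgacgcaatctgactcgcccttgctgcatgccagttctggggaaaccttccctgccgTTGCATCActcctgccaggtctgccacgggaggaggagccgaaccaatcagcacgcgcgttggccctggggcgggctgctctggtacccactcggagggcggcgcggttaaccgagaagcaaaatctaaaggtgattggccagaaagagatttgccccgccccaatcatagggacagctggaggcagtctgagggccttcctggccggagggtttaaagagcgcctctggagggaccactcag
Herpud1 (chr8:94386179-94386478, plus strand): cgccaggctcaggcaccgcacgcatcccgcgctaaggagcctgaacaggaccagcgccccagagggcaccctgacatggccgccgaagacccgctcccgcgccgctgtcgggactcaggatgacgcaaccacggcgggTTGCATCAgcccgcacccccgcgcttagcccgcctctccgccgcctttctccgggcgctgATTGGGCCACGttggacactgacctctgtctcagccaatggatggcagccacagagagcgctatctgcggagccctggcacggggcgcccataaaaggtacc
Trib3 (chr2:152344011-152344310, minus strand): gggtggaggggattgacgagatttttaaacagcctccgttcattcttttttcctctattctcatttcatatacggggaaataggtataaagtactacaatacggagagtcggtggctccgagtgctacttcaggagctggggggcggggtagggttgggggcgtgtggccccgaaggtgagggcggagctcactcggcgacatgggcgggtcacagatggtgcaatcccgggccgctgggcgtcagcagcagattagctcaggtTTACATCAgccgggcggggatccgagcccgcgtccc
Asns (chr6:7693160-7693459, minus strand): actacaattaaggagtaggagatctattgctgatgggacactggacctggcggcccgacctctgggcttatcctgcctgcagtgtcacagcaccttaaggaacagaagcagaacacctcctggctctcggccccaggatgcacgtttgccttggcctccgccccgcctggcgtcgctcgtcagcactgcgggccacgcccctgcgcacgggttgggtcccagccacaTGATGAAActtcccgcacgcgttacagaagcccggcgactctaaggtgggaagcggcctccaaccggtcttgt
Slc7a11 (chr3:50443564-50443863, minus strand): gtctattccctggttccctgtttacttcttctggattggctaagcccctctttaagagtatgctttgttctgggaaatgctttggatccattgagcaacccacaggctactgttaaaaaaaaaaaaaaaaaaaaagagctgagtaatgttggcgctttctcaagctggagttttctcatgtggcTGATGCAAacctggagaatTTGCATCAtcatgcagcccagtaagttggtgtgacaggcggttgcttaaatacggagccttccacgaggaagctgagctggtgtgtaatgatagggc
Hspa5 (chr2:34771840-34772139, plus strand): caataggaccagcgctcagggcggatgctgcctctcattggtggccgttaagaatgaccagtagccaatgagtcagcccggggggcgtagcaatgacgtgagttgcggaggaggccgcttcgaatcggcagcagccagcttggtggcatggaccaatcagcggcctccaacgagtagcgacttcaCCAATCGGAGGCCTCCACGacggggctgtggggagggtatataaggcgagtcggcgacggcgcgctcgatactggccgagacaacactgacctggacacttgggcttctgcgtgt
The match in Chac1 began 193 bases before the start on the opposite strand (TTGCATCA), and the same 8 letters stood 112 bases before the start of Herpud1. Asns had TGATGAAA 23 bases before its start and Trib3 had TTACATCA at base 15 of the transcript. Slc7a11 had a pair of matches, 66 and 47 bases before an annotated start that lies inside the span of the gene. Herpud1 alone of the 9 also had the short ER stress response element, 52 bases before its start, which 0.0365% of windows held. Of the 11 ER chaperone and folding genes with a window, 7 held the longer ER stress response element, against 0.137% of genes, and 0 the composite element. Of 7 aminoacyl-tRNA synthetase genes with a window, 4 held the composite element. The windows of Ddit3, Psat1, Sesn2 and Atf4 held none of these 3 elements, which says only that the letters are not in these windows. A match is a description of sequence and not a measured binding site.

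Before the levels, 1 property of the arrays has to be stated. Values were spread less on 10 arrays, called narrow (standard deviation 1.37 to 1.45 log2 across probe sets), than on 8 arrays, called wide (1.79 to 1.85 log2), and all 6 groups held both kinds. Every wide array read higher than every narrow array of its group in all 6 groups for 8 of the 10 genes, in 5 groups for Chac1 and in 4 for Trib3, so values are compared within a set, and differences come from limma with the set of each array as a block. Within a set a group holds 1 or 2 arrays: at day 0, 2 narrow and 1 wide array per genotype. The targeted gene Pax7 read 5.61 to 6.35 log2 on narrow Pax7+/+ arrays and 5.86 to 6.37 on narrow Pax7-/- arrays, and 4.68 to 5.52 and 4.76 to 5.53 on wide ones. The ranges overlap, and whether its probes sit within the disrupted region is not stated in the sources used here, so this reading checks no label. The 8 pluripotency markers averaged 7.51 to 7.67 log2 on the narrow arrays of day 0 and 5.76 to 5.88 on those of day 21.

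**Figure D1:**
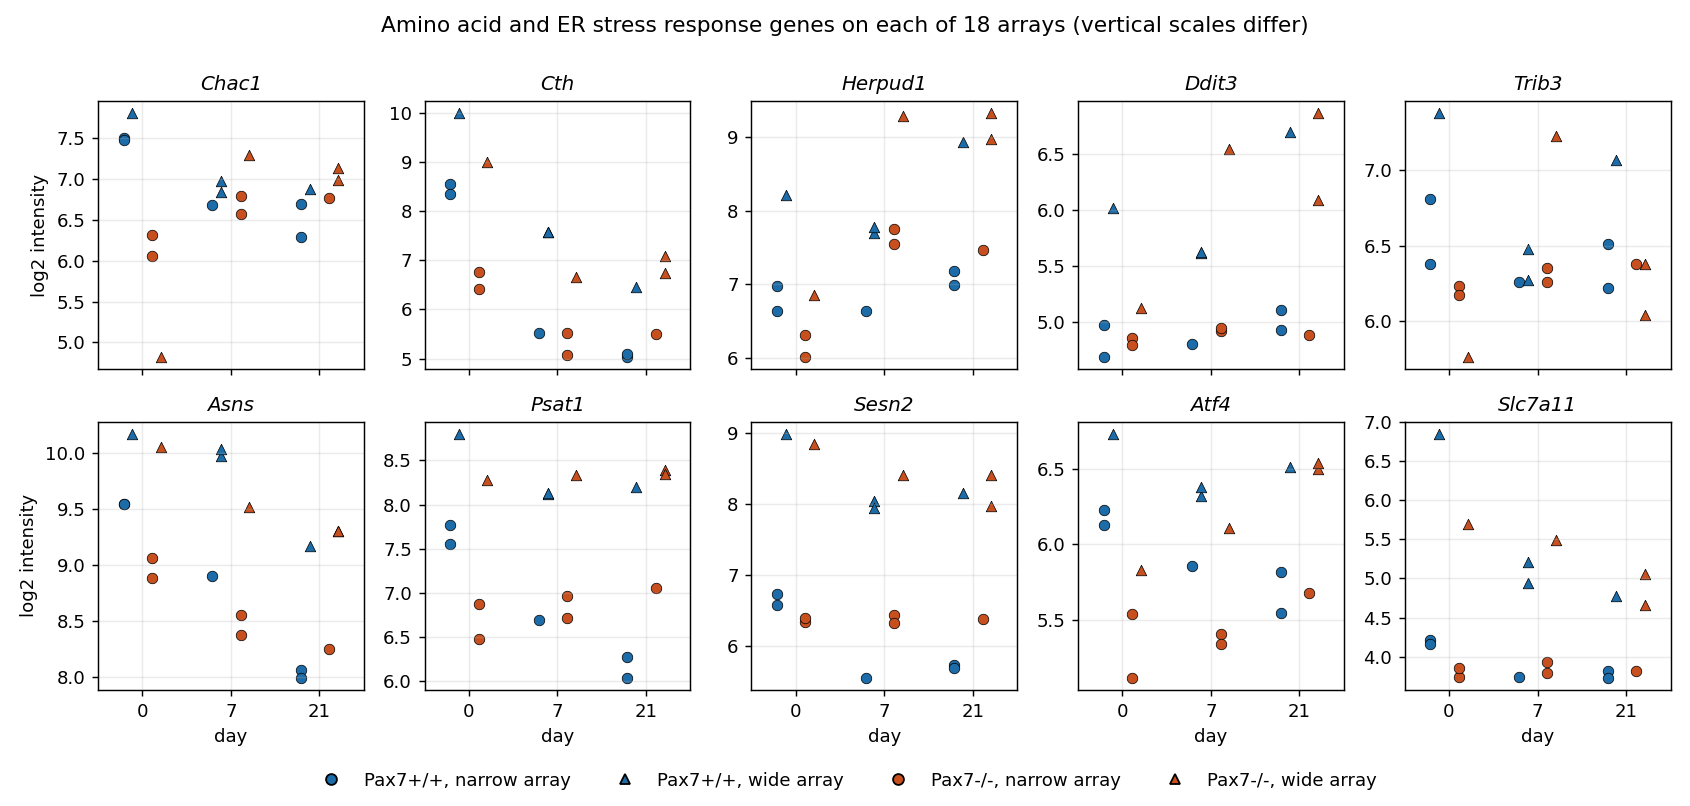
Log2 intensity (vertical axis, a different scale per panel) of each of the 10 genes on all 18 arrays by day (horizontal axis). Blue is Pax7+/+ and orange Pax7-/-, circles are narrow and triangles wide arrays. At day 0 the orange points lie below the blue ones of the same shape for 9 of the 10 genes, Ddit3 overlapping on narrow arrays.

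In undifferentiated cells all 10 genes read lower without Pax7. The median difference was -0.82 log2, against 0.01 log2 over all genes. Chac1 and Cth, which respectively break down glutathione and make cysteine, differed most, by -1.87 ± 0.29 and -1.57 ± 0.21 log2 (SE of the fit). Each genotype had 3 arrays, and the SE uses a spread estimated over all 18 arrays. Atf4 itself read lower by 0.86 ± 0.12 log2 on the fitted scale. In 9 of the 10 genes the Pax7-/- arrays lay wholly below the Pax7+/+ arrays within both array sets, as 12.7% of all genes did, and 0 lay wholly above, as 12.1% did. In the fit 5 of the 10 had an adjusted p under 0.05 on the lower side, where 0.893% of all genes stood, and 0 on the higher side, where 0.388% stood. Since these arrays were used in choosing the genes, nothing further is read from these counts.

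Among the enzymes of cysteine and glutathione, Chac1, a glutamylcyclotransferase that degrades glutathione, read 7.50, 7.47 and 7.80 log2 in Pax7+/+ cells at day 0, the last on the wide array. The Pax7-/- arrays read 6.31 and 6.05 on narrow and 4.82 on wide arrays, the lowest Chac1 value of all 18 arrays. The difference was -1.31 log2 between narrow arrays and -2.99 between the wide ones. Cth, the cystathionine gamma-lyase that makes cysteine, read 8.55 and 8.35 on narrow and 9.99 on wide Pax7+/+ arrays. It read 6.41 and 6.77 on narrow and 8.99 on wide Pax7-/- arrays. For Cth the larger gap was on narrow arrays, at -1.86 against -0.99 log2. For both genes every Pax7-/- array of day 0 lay below every Pax7+/+ array of its set. Slc7a11, the cystine transporter subunit xCT, read 4.21 and 4.16 on narrow and 6.85 on wide Pax7+/+ arrays, and 3.74, 3.86 and 5.70 on the Pax7-/- arrays. Its narrow readings spanned only 3.73 to 4.21 log2 over all groups, and its second probe set, at 2.90 to 3.43 log2, hardly varied.

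Of the transcription factors and their regulators, Atf4 read 6.23, 6.13 and, on the wide array, 6.73 log2 in Pax7+/+ cells. The Pax7-/- arrays read 5.54, 5.12 and 5.83, and the gap was close in both sets, at -0.85 and -0.90 log2. Ddit3, the pro-apoptotic factor CHOP, overlapped on narrow arrays, which read 4.69 and 4.98 in Pax7+/+ and 4.86 and 4.80 in Pax7-/- cells. Its difference of -0.30 ± 0.25 log2 came from the wide arrays, at 6.02 and 5.13. Trib3, a pseudokinase that restrains ATF4 and CHOP, read 6.81, 6.38 and 7.38 against 6.23, 6.17 and 5.76, the last of each on wide arrays. Its difference was -0.80 ± 0.25 log2, larger on wide (-1.62) than on narrow arrays (-0.39).

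The amino acid synthesis genes and Sesn2 read lower in Pax7-/- cells by smaller amounts than Chac1 and Cth. Asns, asparagine synthetase, read 9.54 and 9.54 on narrow and 10.17 on wide Pax7+/+ arrays, against 8.88, 9.06 and 10.05. The difference was -0.42 ± 0.11 log2. Psat1, an aminotransferase of serine synthesis, read 7.77, 7.55 and 8.80 against 6.48, 6.87 and 8.28, a difference of -0.83 ± 0.16 log2. Sesn2, a leucine sensor that holds back mTORC1, differed least, by -0.24 ± 0.15 log2, with 6.74, 6.58 and 8.99 against 6.34, 6.40 and 8.84. For these 3 genes the genotypes did not overlap within either set, though the wide arrays of Asns and Sesn2 lay close together.

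Herpud1, a membrane protein of ER-associated degradation, was lower by 0.88 ± 0.20 log2 at day 0. It read 6.98 and 6.63 on narrow and 8.21 on wide Pax7+/+ arrays, and 6.01, 6.31 and 6.86 on the Pax7-/- arrays. Herpud1 lies on chromosome 8, whose 364 brighter genes (above the 75th percentile of mean signal) had a median genotype difference of 0.15 log2 at day 0. Chromosome 11 stood at 0.16 and the 18 other chromosomes between -0.10 and -0.05, so at day 0 Herpud1 differed the opposite way from its chromosome.

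The sign of the day 0 difference was negative for 9 of the 10 genes under each of the alternative settings tried, and Ddit3 reached 0.06 log2 under 1 of 27. Without the array set block 0 of the 10 had an adjusted p under 0.05, and leaving out replicate 1 or replicate 2 of Pax7+/+ or replicate 1 of Pax7-/- at day 0 left 3. Beside these genes, 7 of 7 fibroblast markers, which feeder cells would also express, read lower in Pax7-/- cells at day 0, with a median of -0.56 log2 and 0 of 7 past the threshold. Their mean level was 6.27 to 6.41 log2 on narrow Pax7+/+ arrays against 5.93 to 5.96, and 7.66 against 6.58 on wide ones. Markers of parietal endoderm went the other way, with 3 of 6 higher and a mean of 6.70 to 6.75 against 7.30 to 7.40 log2 on narrow and 7.52 against 8.35 on wide arrays. The part of either cell type in the result was not tested, and in bulk RNA fewer cells of a type and less RNA per cell cannot be told apart.

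**Figure D2:**
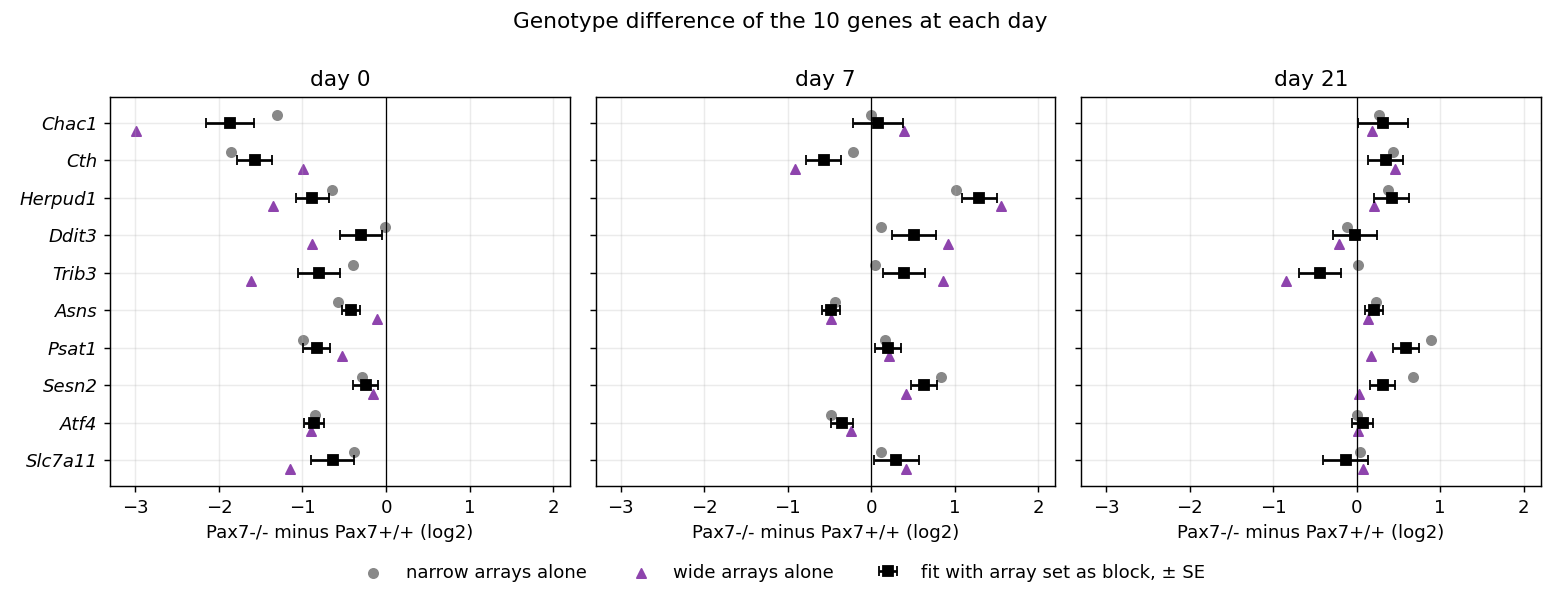
Pax7-/- minus Pax7+/+ in log2 (horizontal axis) of the 10 genes at days 0, 7 and 21. Squares with bars are the block fit ± SE, circles the narrow and triangles the wide arrays alone. Each genotype had 3 arrays per day, and the SE uses a spread estimated over all 18 arrays. All squares lie left of 0 at day 0, and at day 7 Herpud1 stands at 1.29.

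Other genes of the pathway, which had no part in the choice of the 10, were tested in the same fit over all genes. They are 90 measured genes in 11 lists, written with earlier results of these arrays known. At day 0, 15 of the 90 fell without Pax7 and 1 rose at an adjusted p under 0.05 (limma, Benjamini-Hochberg), beside the 0.893% and 0.388% given above for all genes. Their median was -0.16 log2. For all 16 the arrays of the genotypes did not overlap within either set.

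Aminoacyl-tRNA synthetases, which load tRNAs with amino acids, held the most: 6 of 11 fell, 11 of 11 read lower and the median was -0.60 log2. Nars, which charges asparagine, fell by 1.19 ± 0.18 log2 (limma adjusted p = 0.00299). Lars, which charges leucine, fell by 1.00 ± 0.17 (limma adjusted p = 0.00723). Iars and Gars, for isoleucine and glycine, fell by 0.87 ± 0.15 and 0.83 ± 0.14 log2. Of the 15 pathway genes that fell, 11 had a promoter window and 3 of these (Gars, Iars and Slc1a4) held the composite element, as did 10 of the 71 pathway genes with a window. The other synthetases holding it, Tars and Yars, read -0.21 ± 0.15 and -0.50 ± 0.15 log2 and did not pass.

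Amino acid transporters followed, with 4 of 8 lower, 8 of 8 negative and a median of -0.59 log2. Slc38a1, a glutamine carrier, fell by 0.77 ± 0.13 log2 (limma adjusted p = 0.00585), and Slc1a4, a carrier of small neutral amino acids, fell by 0.77 ± 0.14 (limma adjusted p = 0.00999). Slc7a3, a carrier of arginine and lysine, fell by 0.72 ± 0.15 log2. Slc3a2, the heavy chain that pairs with the xCT protein of Slc7a11, fell by 0.55 ± 0.12 log2.

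Of 5 proline, alanine and glutamate enzymes, Aldh18a1, which starts proline synthesis, fell by 1.08 ± 0.12 log2 (limma adjusted p = 0.000391) and Gpt2, the mitochondrial alanine aminotransferase, fell by 0.73 ± 0.11 (limma adjusted p = 0.00365). Glul, glutamine synthetase, was the 1 gene that rose, by 0.40 ± 0.09 log2 (limma adjusted p = 0.0359). Among other ATF4 targets 2 of 9 fell, Xpot, the tRNA exporter, by 0.72 ± 0.12 and Ddit4, an mTORC1 inhibitor, by 0.69 ± 0.13 log2. Txnrd1, a thioredoxin reductase, fell by 0.67 ± 0.15 log2 as the 1 of 8 NRF2 targets past the threshold.

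In the remaining lists no gene passed at day 0. Serine, glycine and one-carbon genes had 6 of 7 negative and a median of -0.37 log2, with Shmt2 at -0.68 ± 0.17 (limma adjusted p = 0.0649), and at an unadjusted p under 0.05 there were 4 lower and 1 higher. Transsulfuration and glutathione genes, the list nearest in function to Chac1 and Cth, had 3 of 8 positive, 5 negative and a median of -0.07 log2, and the 1 gene at an unadjusted p under 0.05 stood higher. The stress factor Nupr1 read -0.99 ± 0.26 log2 (limma adjusted p = 0.0865). ER chaperones and folding enzymes had 10 of 13 positive, 0 of 13 past the threshold and a median of 0.25 log2, opposite in sign to the 10 genes. At an unadjusted p under 0.05, 3 of the 13 chaperone genes stood higher and 0 lower. ER sensors and degradation genes had 0 of 11 past the adjusted threshold, 1 at an unadjusted p under 0.05 and a median of -0.09 log2.

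Of the 15 genes that fell, Aldh18a1, Nars, Lars, Gars, Slc38a1, Gpt2 and Xpot kept an adjusted p under 0.05 in all 18 fits that left out 1 array. The count of 16 was 0 without the array set block, 8 without replicate 1 of Pax7+/+ at day 0 and 10 without replicate 1 of Pax7-/- at day 0.

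**Figure D3:**
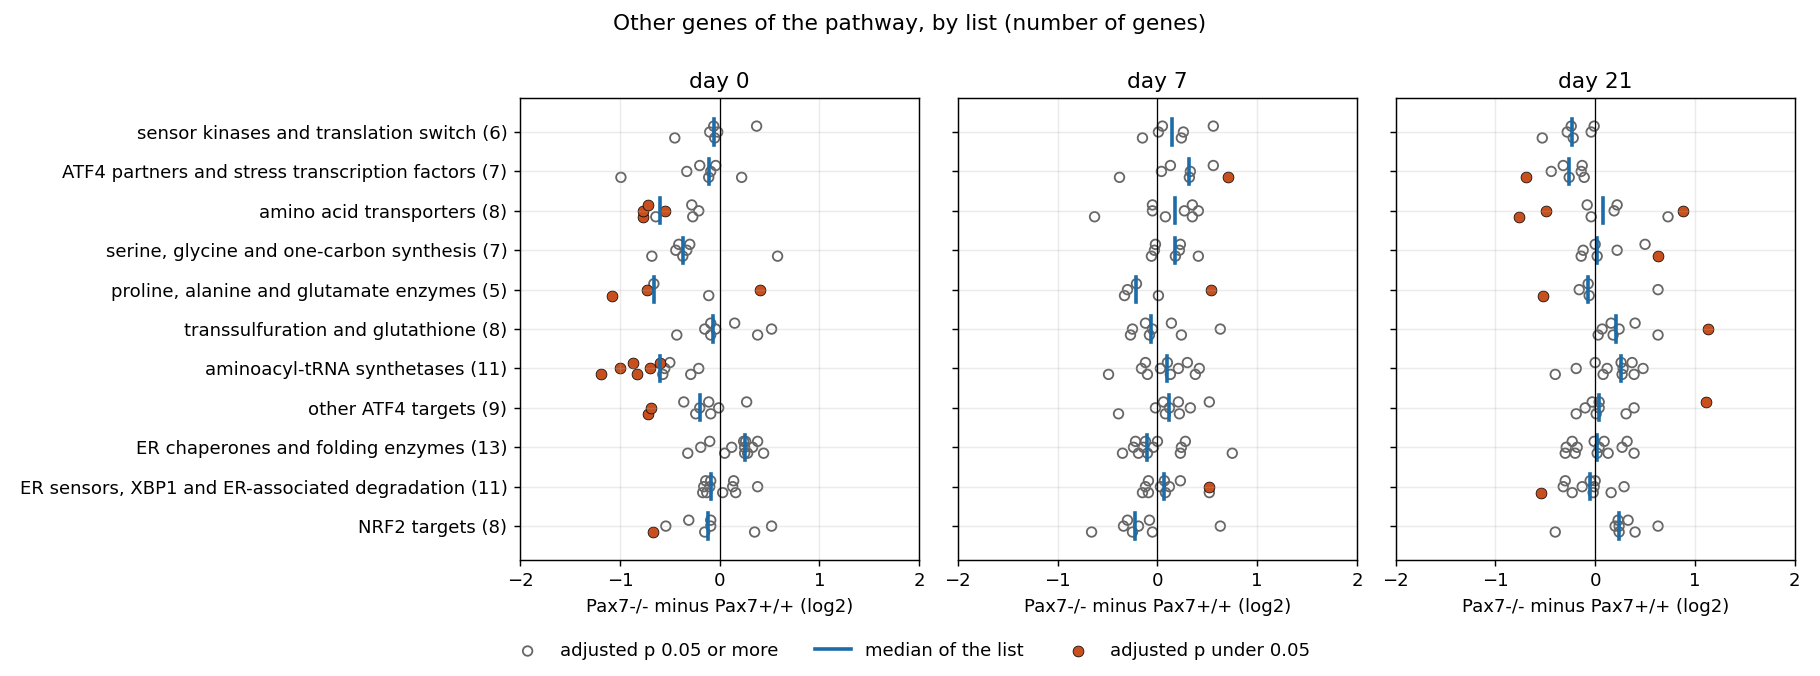
Pax7-/- minus Pax7+/+ in log2 (horizontal axis) of the 90 other pathway genes at each day, 1 point per gene and 1 row per list, with genes in 2 lists drawn in both. Filled points had an adjusted p under 0.05 and blue bars are list medians, at day 0 -0.60 for the synthetases and 0.25 for the ER chaperones.

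By day 7 the picture among the 10 genes had changed. Herpud1 now read higher without Pax7, by 1.29 ± 0.21 log2, while Asns, Cth and Atf4 still read lower, by 0.48 ± 0.11, 0.57 ± 0.21 and 0.35 ± 0.13 log2 on the fitted scale. Chac1, the gene with the widest gap at day 0, differed by 0.08 ± 0.30 log2. The median of the 10 was 0.25 log2 against -0.01 over all genes. Within both array sets 5 of the 10 lay wholly higher (Herpud1, Ddit3, Psat1, Sesn2 and Slc7a11), as 15.3% of all genes did, and 3 wholly lower (Asns, Cth and Atf4), as 16.8% did. In the fit 1 of 10 passed as higher, where 0.32% of all genes did, and 0 as lower, where 0.307% did.

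Herpud1 read 6.64 on the narrow and 7.70 and 7.77 log2 on the wide Pax7+/+ arrays of day 7. The Pax7-/- arrays read 7.55 and 7.75 on narrow and 9.28 on wide arrays, all above Pax7+/+ arrays of the same set. The narrow arrays differed by 1.01 and the wide ones by 1.55 log2, against a chromosome 8 median of 0.24, a chromosome 11 median of 0.27 and -0.07 to 0.01 on the others. The part of the chromosome shift in the Herpud1 value was not tested. Leaving out replicate 2 or 3 of either genotype at day 7 moved its adjusted p above 0.05, while the difference stayed between 1.18 and 1.43 log2 over all fits without 1 array.

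The other members differed by less. Sesn2 read 5.56 on the narrow Pax7+/+ array of day 7 against 6.44 and 6.33 in Pax7-/- cells, and 8.04 and 7.95 against 8.41 on wide arrays, a difference of 0.63 ± 0.15 log2. Ddit3, at 0.51 ± 0.26, and Trib3, at 0.39 ± 0.25, differed mainly on wide arrays, by 0.92 and 0.86 against 0.12 and 0.04 log2 on narrow ones. Asns read 8.90 against 8.55 and 8.37 on narrow, and 9.97 and 10.03 against 9.52 on wide arrays. Slc7a11 and Psat1 differed by 0.30 ± 0.27 and 0.20 ± 0.16 log2.

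Of the 90 other pathway genes 3 rose at day 7 and 0 fell, and the median was 0.04 log2. At an unadjusted p under 0.05, 17 stood higher and 10 lower. Atf3, a stress-induced repressor, rose by 0.71 ± 0.14 log2 (limma adjusted p = 0.0308), Gpt2 by 0.54 ± 0.11 (limma adjusted p = 0.0475) and Xbp1, the factor of the IRE1 branch, by 0.52 ± 0.10 (limma adjusted p = 0.034). Gpt2 and Xbp1 lie on chromosomes 8 and 11, whose medians are given above. In all 3 the genotypes did not overlap within either set. Gpt2 passed in only 3 of the 18 fits without 1 array, and Atf3 and Xbp1 in 12 each. Of the synthetases 0 of 11 passed (3 at an unadjusted p under 0.05), with a median of 0.10 log2, and Dnajb9, an ER co-chaperone, read 0.75 ± 0.16 (limma adjusted p = 0.0529). The count of 3 was 0 in each of the fits without replicate 2 or 3 of Pax7+/+ or without any 1 replicate of Pax7-/- at day 7. At this day 7 of 7 fibroblast markers read higher in Pax7-/- cells, with a median of 0.53 log2 and 0 past the threshold. Their mean was 5.75 log2 against 5.95 to 5.99 on narrow and 6.06 to 6.18 against 6.85 on wide arrays, and their part in these differences was not tested. Cardiac and smooth muscle markers read higher in 6 of 6, with a median of 0.49 log2, and Cnn1, a smooth muscle calponin, passed at 0.81 ± 0.17 (limma adjusted p = 0.0391). Their part was not tested either.

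The change of the genotype difference from day 0 to day 7 was tested directly for the pathway genes. It passed as positive for 8 and as negative for 1 of 90, against 0.329% and 0.153% of all genes. Lars moved by 1.42 ± 0.24 log2 (limma adjusted p = 0.0134), Gpt2 by 1.27 ± 0.16 (limma adjusted p = 0.00188) and Ddit4 by 1.21 ± 0.18 (limma adjusted p = 0.00432). The other positive genes were Atf3, Slc1a4, Sars, Slc3a2 and Xpot, and the negative one was Glul, at -0.61 ± 0.13 log2. Lars, Gpt2 and Ddit4 kept an adjusted p under 0.05 in all 18 fits without 1 array. The count of 9 was 4 with a replicate block, 5 on either array set alone, and 3 to 5 without replicate 1 or 2 of Pax7+/+ or replicate 1 or 3 of Pax7-/- at day 0, replicate 2 or 3 of Pax7+/+ at day 7 or any 1 replicate of Pax7-/- at day 7. Among the 10 members the same quantity was positive for 9, with Herpud1 at 2.17 ± 0.29, Chac1 at 1.95 ± 0.42, Trib3 at 1.19 ± 0.35 and Psat1 at 1.03 ± 0.23 log2. Asns, at -0.06 ± 0.16, was the exception. For the fibroblast markers it was positive in 7 of 7, with a median of 1.16 log2 and 1 past the threshold, and for the muscle markers in 6 of 6, with 0.62 log2 and 1 past it. For parietal endoderm markers it was negative in 5 of 6, with 1 past the threshold. The part of these markers was not tested. The values behind this quantity were known when the 10 were chosen, so for them it is a description.

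**Figure D4:**
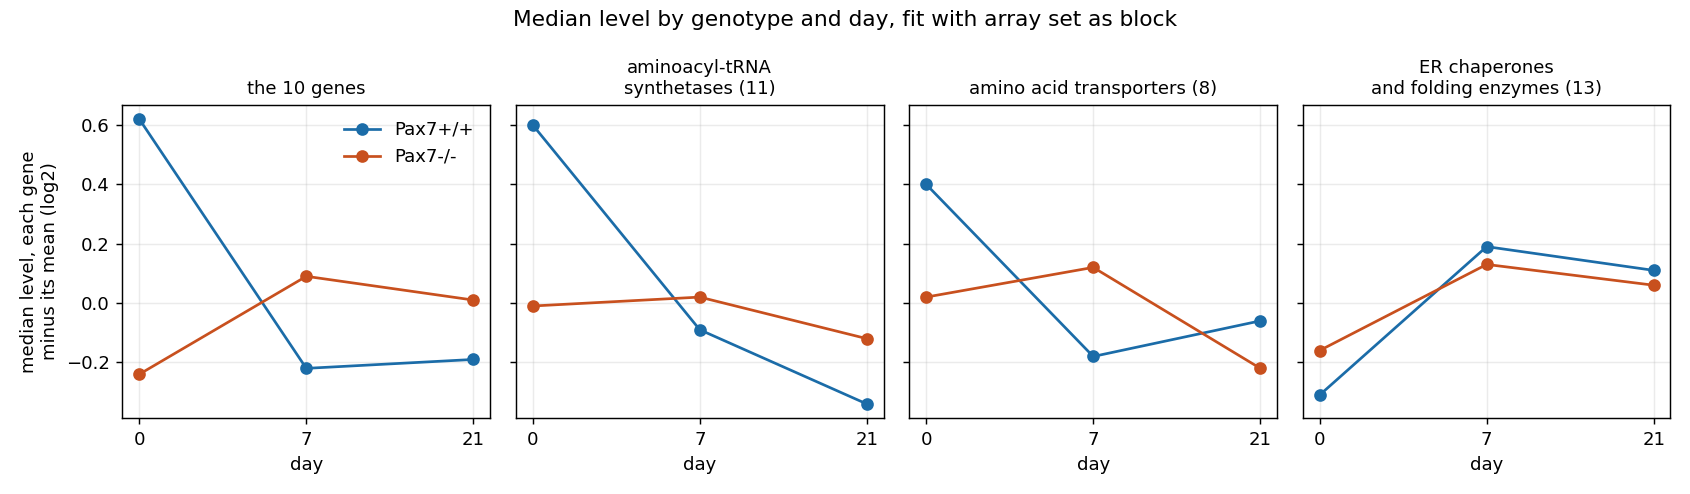
Median level of a list (vertical axis, log2, each gene minus its mean over the 6 groups) by day (horizontal axis), Pax7+/+ in blue and Pax7-/- in orange, as fitted with the block. At day 0 the 10 genes stand at 0.62 in Pax7+/+ and -0.24 in Pax7-/- cells, the synthetases at 0.60 and -0.01, and the ER chaperones at -0.31 and -0.16.

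The steps of differentiation give the same levels by day within each genotype. They use the same arrays as the genotype differences and the change of these, so the results are not independent of one another. In Pax7+/+ cells all 10 genes read lower at day 7 than at day 0, with a median of -0.71 log2 against 0.00 over all genes. Cth differed most, by -2.63 ± 0.21 log2, from 8.55 and 8.35 to 5.52 on narrow and from 9.99 to 7.58 and 7.57 on wide arrays. Sesn2, Slc7a11, Psat1, Chac1, Trib3 and Asns differed by -1.0, -0.98, -0.90, -0.79, -0.63 and -0.45 log2. In the fit 5 of the 10 passed as lower, where 3.14% of all genes did, and 0 as higher, where 2.54% did. The count of 5 was 3 without any 1 of the Pax7+/+ arrays of day 7, 3 on narrow arrays alone and 0 without the array set block. Cell type markers moved in the same step: parietal endoderm markers rose in 5 of 6 (median 2.14 log2), visceral endoderm and liver markers rose in 2 of 7 (0.96), pluripotency markers fell in 3 of 8 (-0.56), and fibroblast markers fell in 2 of 7 (-1.02). Markers of cardiac and smooth muscle fell in 2 of 6 and of neurons in 1 of 5, with medians of -0.36 and -0.30 log2. Their part in the values of the 10 genes was not tested.

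In Pax7-/- cells the same step was mixed, with 6 of 10 positive and a median of 0.13 log2. Herpud1 was higher by 1.80 ± 0.20 and Chac1 by 1.16 ± 0.29 log2, from 6.31, 6.05 and 4.82 to 6.57, 6.79 and 7.29, the last of each wide. Cth was again lower, by 1.64 ± 0.21 log2, and so was Asns, by 0.52 ± 0.11 log2. Atf4, Psat1, Slc7a11 and Sesn2 lay within 0.13 log2 of their day 0 level. In the fit 2 of 10 passed as higher and 2 as lower, beside 2.05% and 1.82% of all genes, and each of these counts was 1 or 2 in the fits without 1 array. Here pluripotency markers fell in 6 of 8 (median -1.36 log2), parietal endoderm markers rose in 5 of 6 (1.97), visceral endoderm and liver markers rose in 2 of 7 (1.5) and neuron markers fell in 2 of 5 (-0.17). Fibroblast and muscle markers had 0 past the threshold, and the part of these markers was not tested.

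Of the 90 pathway genes, 29 fell and 12 rose in Pax7+/+ cells from day 0 to day 7, beside 3.14% and 2.54% of all genes. Synthetases fell in 8 of 11, led by Lars at -1.43 ± 0.17 log2 (limma adjusted p = 0.000106), Nars at -1.25 ± 0.18 and Gars at -0.91 ± 0.14. Slc7a3 fell by 2.00 ± 0.16 log2 (limma adjusted p = 1.45e-06), Slc7a5, a leucine carrier, by 1.03 ± 0.22 and the serine hydroxymethyltransferase Shmt2 by 1.17 ± 0.17 (limma adjusted p = 0.000638). ER chaperones rose in 7 of 13 and fell in 1, with Hsp90b1 at 0.85 ± 0.19, Sdf2l1 at 0.84 ± 0.18 and Pdia6 at 0.83 ± 0.13 log2 (limma adjusted p = 0.00137). In Pax7-/- cells 12 rose and 6 fell, beside 2.05% and 1.82% of all genes. There 0 of 11 synthetases passed as lower and Wars, for tryptophan, rose by 0.84 ± 0.15 log2 (limma adjusted p = 0.00342). Slc7a3 fell by 1.33 ± 0.15, Slc38a1 rose by 0.97 ± 0.13, Ddit4 rose by 1.01 ± 0.13 and Xbp1 rose by 1.01 ± 0.10 log2 (limma adjusted p = 3.39e-05). Hmox1 fell by 1.44 ± 0.17 and Gsta4 by 1.20 ± 0.15 log2, and Got1, Gclc and Gclm fell too. NRF2 targets fell in 4 of 8 in each genotype, Hmox1 by 0.90 ± 0.18 and Gsta4 by 1.08 ± 0.15 log2 in Pax7+/+ cells. Slc7a3 fell and Hsp90b1 and Xbp1 rose in both genotypes, Hsp90b1 by 1.05 ± 0.18 and, in Pax7+/+ cells, Xbp1 by 0.64 ± 0.10 log2. Whether a step differs between genotypes is the change of the genotype difference given above.

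From day 7 to day 21 the 10 genes moved in both directions in each genotype. In Pax7+/+ cells 5 were positive and 5 negative and the median was 0.00 log2. Herpud1 was higher by 0.79 ± 0.21 and Asns and Cth lower by 0.89 ± 0.11 and 0.80 ± 0.21 log2. Herpud1, Asns and Ddit3, at 0.62 ± 0.26, differed by more than in the step before. In the fit 1 passed as higher and 2 as lower, beside 1.37% and 4.48% of all genes, and without 1 array these were 0 or 1 and 1 or 2. In Pax7-/- cells the median was -0.01 log2, the values ran from -0.45 to 0.41, and 0 of 10 passed in either direction, beside 0.455% higher and 0.379% lower over all genes. Of the 90 pathway genes 7 rose and 9 fell in Pax7+/+ cells. Nupr1 rose by 1.57 ± 0.27, Atf3 by 1.55 ± 0.14 (limma adjusted p = 1.46e-05) and Ppp1r15a, the phosphatase subunit that reverses the eIF2 alpha switch, by 1.13 ± 0.17 log2. In that step 4 of 7 fibroblast markers rose too, with a median of 1.84 log2, and 3 of 8 pluripotency markers fell and 1 rose. Muscle markers were positive in 6 of 6, with a median of 1.46 log2 and 1 past the threshold. Parietal endoderm markers were positive in 6 of 6, with 0.70 log2 and 0 past it. Of the neuron markers 1 of 5 fell, and of the visceral endoderm and liver markers 1 of 7. The part of these markers was not tested. The count of 16 was 9 without replicate 2 of Pax7+/+ at day 7. In Pax7-/- cells 0 of 90 passed in limma, with 21 at an unadjusted p under 0.05, and no alternative gave more than 2.

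In outgrowths at day 21 the 10 genes differed little between genotypes. The differences ran from -0.44 ± 0.25 (Trib3) to 0.59 ± 0.16 log2 (Psat1), with a median of 0.26 log2 against -0.01 over all genes. Psat1 read 6.28 and 6.04 on narrow Pax7+/+ arrays against 7.05, but 8.20 against 8.39 and 8.35 on wide ones, so the sets differed in size, at 0.89 and 0.17 log2. Herpud1 read 6.99 and 7.18 against 7.46 on narrow and 8.93 against 8.97 and 9.32 on wide arrays, a difference of 0.42 ± 0.21 beside chromosome 8 and 11 medians of 0.36 and 0.35 log2 (0.01 to 0.14 on the others). Within both array sets 5 of 10 lay wholly higher, as 18.8% of all genes did, and 0 wholly lower, as 17.3% did. In the fit 1 of 10 passed as higher and 0 as lower, beside 3.82% and 1.07% of all genes. That 1 gene was Psat1, which fell short of the threshold in 13 of the 18 fits without 1 array and with median centring, with the mean of all probe sets, with a replicate block and without the array set block. Narrow arrays alone gave 2 higher and 0 lower, and wide arrays alone 0 higher and 1 lower. The change of the genotype difference from day 7 to day 21 passed for 0 of 10 members, beside 0.721% of all genes as positive and 0.189% as negative.

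Of the 90 pathway genes at day 21, 4 rose and 5 fell, beside the 3.82% and 1.07% of all genes given above, so the rises were near the general rate. Ahcy, which hydrolyses S-adenosylhomocysteine, rose by 1.13 ± 0.23 log2 (limma adjusted p = 0.00858), Ddit4 by 1.11 ± 0.13 (limma adjusted p = 0.000253), Slc7a3 by 0.88 ± 0.16 and Shmt1, on chromosome 11, by 0.63 ± 0.17. Slc38a1 fell by 0.76 ± 0.13 (limma adjusted p = 0.00273), Atf3 by 0.69 ± 0.14, the ER stress sensor Atf6 by 0.54 ± 0.13, Glul by 0.52 ± 0.09 and Slc7a1 by 0.49 ± 0.13 log2. The arrays of the genotypes did not overlap within either set for all 9. Synthetases had 0 of 11 past the threshold and ER chaperones 0 of 13, each with 5 at an unadjusted p under 0.05. The count of 9 was 4 without replicate 1 of Pax7-/- at day 21. Fibroblast markers read lower in 7 of 7 at this day, with a median of -0.88 log2 and 1 past the threshold, and neuron markers rose in 3 of 5. Parietal endoderm markers read lower in 6 of 6, with a median of -0.66 log2 and 3 past the threshold, and visceral endoderm and liver markers in 7 of 7, with a median of -0.84 and 0 past it. Of the pluripotency markers Nanog and Sox2 were higher and Klf4 lower past the threshold. Muscle markers read higher in 6 of 6, with a median of 0.48 log2 and 0 past it. Their part in these differences was not tested.

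Put in order over the 6 groups, the fitted levels give each gene its own profile. Pax7+/+ at day 0 was highest for 8 of the 10 genes, all but Herpud1 and Ddit3. Pax7-/- at day 0 was lowest for 5: Chac1, Herpud1, Ddit3, Trib3 and Atf4. For 3 of these the next group lay no further off than about the SE of a difference. Ddit3 stood at 5.13 against 5.15, Trib3 at 6.11 against 6.22 and Atf4 at 5.61 against 5.73 log2. The share of all genes with the same highest or lowest group was not counted. Chac1 ran from 7.60 log2 in Pax7+/+ at day 0 to 5.74 in Pax7-/- at day 0, with the 4 later groups between 6.63 and 6.95 and neighbours there closer than the SE of a difference, 0.29 to 0.30. Cth had the widest range, 3.44 log2, from 9.24 in Pax7+/+ and 7.68 in Pax7-/- at day 0 to 5.81 in Pax7+/+ at day 21. Herpud1 stood at 8.43 and 8.35 log2 in Pax7-/- at days 7 and 21, neighbours closer than their SE, then at 7.93, 7.51 and 7.14 in Pax7+/+ at days 21, 0 and 7, and at 6.63 in Pax7-/- at day 0. Asns followed the day, from 9.91 and 9.50 at day 0 to 8.78 and 8.57 at day 21, with Pax7+/+ the higher genotype at days 0 and 7 only. Ddit3 had the narrowest range, 0.64 log2.

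Levels centred within each array set were also correlated over the 18 arrays, as a description, with groups and libraries shared by all genes. Between members Pearson's r ran from -0.61 (Herpud1 with Asns) to 0.88 (Cth with Asns). Herpud1 and Ddit3, both known to be induced in ER stress, had r = 0.80, and Chac1 and Atf4 0.76. Levels were centred but not scaled, so the wide arrays weigh more in r. Ddit3 spanned only 4.69 to 5.11 log2 on narrow arrays, against 5.13 to 6.86 on wide ones, and r was not taken within a set. Genes with predicted-gene symbols were passed over in the lists and ranks that follow. Over the remaining genes the closest to Chac1 were Dlg3 (0.869), Cstdc6, Gpr18, Fgd2 and Fzd7, with Atf4 18th. The closest to Cth were Septin1 (0.978), Ltbp4, Slc7a3, Gsta4 and Gid8, with Asns 97th. The closest to Herpud1 were Sgsm1 (0.877), Tcf12, Slc1a4, Pja2 and Phf21a, with Ddit3 56th.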

How the data were processed

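Total RNA of 18 samples was measured on Affymetrix arrays, and the authors deposited 1 log2 value per probe set. RMA and Partek are named, without version, per the submitters' processing notes. A single gene symbol was given for 23521 of 41345 probe sets, several for 1814 and none for 16010. The probe set with the highest mean was kept per gene, giving 22180 genes, 21994 of them matched to the reference. Of 97 listed pathway genes 90 were measured. No filter on low signal was used.

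The members and gene lists were chosen with earlier results of these data known, as was the array set (a standard deviation over probe sets above 1.6 is wide) as a block. Differences come from limma 3.58.1 in R 4.3.3 (lmFit with 6 group means and the block, 11 residual degrees of freedom, eBayes), with Benjamini-Hochberg adjustment over all genes and a threshold of 0.05. Where any of the 10 members also stands in a pathway list, it is left out of the count of that list. Genes to be named were taken by a fixed rule, though the text does not name every gene it took. The rule took all 10 members. Per list it took up to 4 passing genes by size at each day (up to 2 by p where none passed). Per step it took up to 3. It also took the 5 genes most like Chac1, Cth and Herpud1, with predicted-gene symbols passed over. Counts of 5 or fewer, and the genes whose genotype difference changed, are named beyond this rule, after their values were seen. For arrays their number limits the precision. The code was tested on simulated data. Figures used Python 3.11.15 and matplotlib 3.10.9.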

Additional observations from a re-analysis of the deposited data

Results flagged for a closer look

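The genotype difference itself changed between days, by the test of that change in limma, for 12 pathway genes. From day 0 to day 7 it moved by 1.42 log2 for Lars, 1.27 for Gpt2, 1.21 for Ddit4, 1.04 for Atf3, 1.04 for Slc1a4, 0.91 for Sars, 0.90 for Slc3a2 and 0.83 for Xpot, and by -0.61 for Glul. Gpt2 lies on chromosome 8 and Slc1a4 on chromosome 11, whose median differences were 0.15 and 0.16 log2 at day 0 and 0.24 and 0.27 at day 7. From day 7 to day 21 it moved by -1.40 log2 for Atf3, -1.09 for Ppp1r15a and -0.84 for Slc38a1, and by 0.99 for Gsta4. Lars, Gpt2, Ddit4 and, for the later change, Atf3 passed in all 18 fits without 1 array, while Glul and Ppp1r15a did so in 2 each, Sars and Slc38a1 in 4 each and Gsta4 in 5. Over these fits 3 to 12 pathway genes passed for the first change, against 9, and 1 to 4 for the second, against 4. With 3 arrays per group, no array was tested for standing apart.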

How the results depend on the processing

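The number of the 90 pathway genes past the threshold depended most on the array set block. Without it the counts of 16, 3, 9, 41, 16, 18, 9 and 4 all became 0: at days 0, 7 and 21 between genotypes, over the Pax7+/+ steps to day 7 and to day 21, over the Pax7-/- step to day 7, and for the changes of the genotype difference to day 7 and to day 21. At day 7 the count of 3 was 0 on narrow arrays alone, 1 on wide ones, and 5 with quantile normalization or with genes above the median signal only. Quantile normalization gave 14 at day 21 and 14 for the first change, and 1 for the Pax7-/- step to day 21, where the main count was 0. That step also gave 1 on wide arrays, 2 with median centring and 2 with the brighter genes only. Narrow arrays alone gave 17 and 6 for the Pax7+/+ steps, 5 for the first change and 1 for the second, wide arrays 5 for the first, and median centring 2 for the second. Of the called pathway genes, Slc7a1 and Atf6 at day 21 kept their sign in 26 of 27 alternatives. So did Gclc, Eprs and Dnajb9 over the Pax7+/+ step to day 7. Dnajb9 over the Pax7+/+ step to day 21 and Slc38a1 for the second change did too. The other called pathway values kept their sign in every alternative. For these moves the cause was not tested, apart from the fewer arrays (4 and 2 residual degrees of freedom) in the fits to 1 set.

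Leaving out 1 array gave 8 to 19, 0 to 4 and 4 to 10 genes between genotypes at days 0, 7 and 21, 28 to 43 and 9 to 17 for the Pax7+/+ steps, 12 to 21 and 0 to 2 for the Pax7-/- steps, and 3 to 12 and 1 to 4 for the changes. A group left with 2 arrays is assumed to vary like the others. Same-numbered arrays of 1 day correlated between -0.22 and 0.23 after group means and the array set were removed. Replicate 1 was a narrow array in every group, so a pairing carried by the set was removed as well. This check therefore cannot tell whether the numbers pair samples. With a replicate block the counts were 0 at day 7, 4 for the first change and 1 for the second. Signal over background was not analysed here.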
